A study of Mus musculus with 8 samples.

Results

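Expression of 46 genes of fatty acid uptake, storage and oxidation was examined in RNA from mouse hearts, over the 2 libraries of each of 4 groups. The 46 were chosen by gene name from the 54532 rows of the deposited table, with earlier results of these data known. All 46 passed the filter on low values that left 13928 genes to be tested. The 4 groups were hearts labelled Piezo1-Cko after TAC (written Cko TAC), hearts labelled Piezo1-Cko after sham surgery (Cko sham), wild-type hearts after TAC (WT TAC) and wild-type hearts after sham surgery (WT sham), all of strain C57BL/6. TAC is the usual name in cardiac work for transverse aortic constriction, which narrows the aorta and loads the left ventricle, and sham surgery leaves the vessel unconstricted. The channel encoded by Piezo1 is one that membrane stretch opens. The kind of Piezo1 allele, the cells it acts in, the sex and age of the mice, the time after surgery and whether a library held 1 heart or a pool are not given in the sources used here. Nothing says that the libraries of a group came from separate animals, so each p-value speaks of the spread between libraries alone, and that spread may be technical.

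The adult heart draws most of its energy from long-chain fatty acids. Lipoprotein lipase frees them from circulating triglyceride, membrane and cytosolic proteins carry them into the muscle cell, acyl-CoA synthetases activate them, and the carnitine shuttle moves them into mitochondria, where beta-oxidation shortens them in repeated cycles. Malonyl-CoA restrains the shuttle, a store of triglyceride buffers supply, and nuclear receptors of the PPAR and estrogen-related receptor families, with their coactivators, drive transcription of many of these genes in heart muscle. A lower expression of this pathway under pressure overload is well known from other studies.

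The values are FPKM, reads per length of gene and per size of library. Levels of different genes therefore rest on the length listed for each and on how reads shared with other genes were counted. Their ranks are approximate. The whole reads recovered from them ranged over the libraries up to 17313084, in WT TAC replicate 2, with a minimum of 15574769, in WT sham replicate 2, and members had from 35 to 114291 reads in a library. Piezo1 itself was at 5.24 and 3.89 FPKM in Cko TAC against 5.38 and 5.83 in WT TAC, and at 3.83 and 3.23 in Cko sham against 2.35 and 3.09 in WT sham. Neither difference passed (log2 fold change -0.28, adjusted p = 0.652 under TAC; 0.33, adjusted p = 0.774 under sham; limma). The gene total does not check the genotype labels, because reads from exons that a deletion spares, and from cells with an intact allele, stay in such a total. Some libraries stood apart. WT sham replicate 1 held RNA of atrial genes, with Myl7 at 394 FPKM against at most 0.443 in the other 7 libraries, and WT TAC replicate 1 held RNA of immunoglobulin genes, with Igkc at 272 FPKM against at most 25.9. Of the 8 listed fat cell markers, Adipoq was at 3.06 FPKM in WT sham replicate 1 and at most 0.378 in the other 7; Lep, Retn, Plin1 and Cidec were also highest in WT sham replicate 1, at most 1.67 FPKM. Cfd was at 18.8 FPKM there and at most 4.53 elsewhere, Lipe, itself a member, at 7.09 to 12.4 FPKM, and Fabp4, which capillary endothelium also expresses, at 193 to 498 FPKM. Of 5 brown fat markers Cidea was at 23.1 to 47.7 FPKM, while Ucp1, Elovl3, Zic1 and Lhx8 were at most 0.0379. The part of fat cells in the members' values was not tested.

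TAC was compared with sham to ask what the surgery did to this pathway. Most genes of fatty acid oxidation fell, while the acyl-CoA synthetases and most of the regulators did not. Averaged over genotypes, 27 of the 46 members fell and 2 rose, Acsl4 and Ucp2 (limma, Benjamini-Hochberg adjusted p under 0.05 over all 13928 tested genes). Of all tested genes, 13.5% were lower and 11.9% higher in that comparison. The median log2 fold change was -0.58 over the members and 0.01 over all tested genes. In wild type alone 19 members fell and none rose, against 7.65% of all genes lower and 5.57% higher, with 31 members and 33.7% of all genes at an unadjusted p under 0.05 and a member median of -0.60. In Piezo1-Cko alone 2 members fell, Slc27a1 and Cpt1b, and none rose, against 0.546% of all genes lower and 0.948% higher; 25 members and 21.8% of all genes had an unadjusted p under 0.05, and the member median was -0.50. All fold changes were taken between values of log2(FPKM + 0.5), and those of genes with low levels are therefore understated.

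Both TAC libraries lay below both sham libraries for 35 members in Piezo1-Cko, against 28.3% of all tested genes, and for 30 in wild type, against 30.9%. Across both genotypes together, every TAC library lay below every sham library for 26 members, against 14.6% of all tested genes, and above for 2, Acsl4 and Cpt1a, against 13.1%. The summed FPKM of the 46 genes was 6473 and 8731 in Cko TAC against 10728 and 11433 in Cko sham. In wild type the sum was 6847 and 8707 under TAC against 12884 and 12780 under sham. Fabp3 held the largest share of this sum. The groups did not overlap in either genotype, and the WT sham libraries were the highest of the 8.

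**Figure D1:**
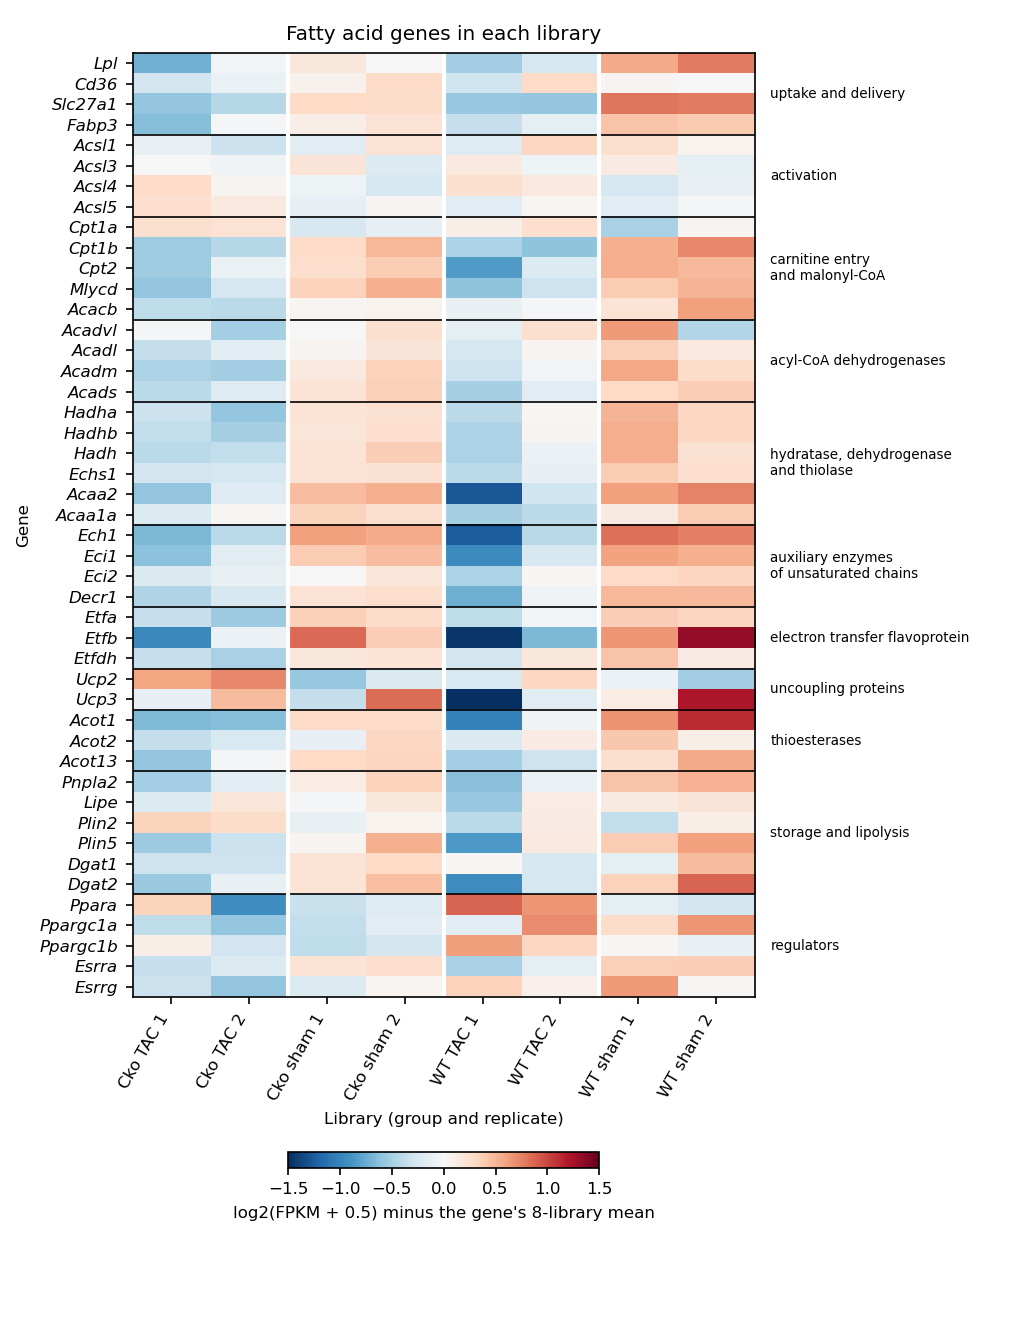
Level of each of the 46 genes (rows, in order of role) in each of the 8 libraries (columns), as log2(FPKM + 0.5) minus the gene's mean over the 8 libraries; red is above and blue below that mean, and colours stop at 1.5 in either direction. Most rows of oxidation genes are blue in the 4 TAC libraries and red in the 4 sham libraries, while the activation genes and Ppara, Ppargc1a, Ppargc1b and Esrrg are not.

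Calls within a genotype moved with single libraries, among the members as over all genes. In the averaged comparison, too, calls over all genes became fewer without either Cko sham library, or without both first wild-type libraries. Of the 19 members that fell in wild type, Slc27a1 alone passed whichever library was left out. The count was 1 on leaving out WT TAC replicate 1 and 23 on leaving out the second WT TAC library, when 74 and 1327 of all genes passed, against 1842 with every library. It was 4 and 1 on leaving out the first and second WT sham library (494 and 185 of all genes), 3 on leaving out either Cko sham library (425 and 424) and 19 on leaving out either Cko TAC library (2107 and 2113), since all groups share the estimate of spread. The median log2 fold change of the members in these fits lay between -0.76 and -0.41. In Piezo1-Cko the count was 0 on leaving out either Cko sham library, when 0 of all genes passed, and 0 without Cko TAC replicate 1, when 6 did, against 208 with every library. It was 1 without either WT sham library (95 and 94 of all genes), 6 without either WT TAC library (357 and 362) and 2 without the second Cko TAC library (378), and the median of the members lay between -0.60 and -0.44. In the averaged comparison, 16 of its 29 calls passed whichever library was left out, and the count was 17 without Cko sham replicate 2, 18 without Cko sham replicate 1 and 21 when the first replicates of WT TAC and WT sham were both left out. These 16 were Slc27a1, Cpt1b, Cpt2, Mlycd, Acadm, Acads, Hadh, Echs1, Acaa2, Acaa1a, Ech1, Eci1, Etfa, Etfb, Acot1 and Esrra.

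Cardiac muscle markers moved the same way. Of 10 cardiomyocyte markers, 7 fell in the averaged comparison with a median log2 fold change of -0.69, and their summed FPKM was 8397 to 11968 in the 4 TAC libraries against 16707 to 20827 in the 4 sham libraries. The troponin gene Tnni3 fell (log2 fold change -1.30, SE 0.220, adjusted p = 0.00840), whereas Actn2 (-0.10), Ryr2 (-0.20) and Ttn (-0.17) did not pass. Over the same comparison 5 of 8 fibroblast markers and 7 of 7 macrophage markers rose, with medians of 1.38 and 0.80, and none of 7 endothelial markers passed (limma, 2 at an unadjusted p under 0.05). The mean log2 level of the members, minus that of the cardiomyocyte markers, was 0.21 and -0.01 in Cko TAC and -0.12 and 0.01 in Cko sham, against -0.01 and 0.13 in WT TAC and -0.10 and -0.11 in WT sham. In such bulk RNA, fewer cells of a type and less RNA per cell cannot be told apart, and the part of cell makeup in the members' values was not tested.

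**Figure D2:**
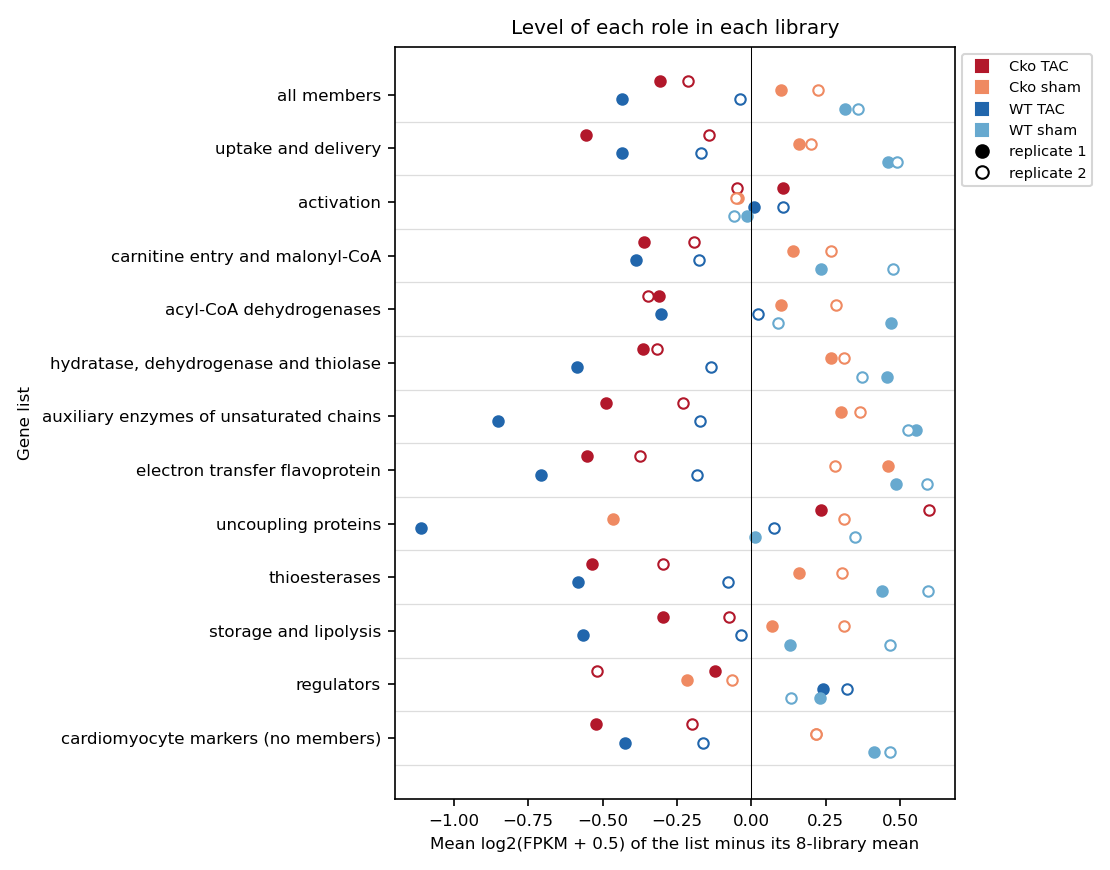
Mean log2(FPKM + 0.5) of the genes of each role, minus the mean over the 8 libraries (horizontal axis), in each library, with filled points for replicate 1 and open points for replicate 2; cardiomyocyte markers, which are no members, are at the bottom. TAC libraries lie left of sham libraries for the oxidation roles, WT TAC replicate 1 is the lowest library in several of them, and the activation genes show no such split.

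Genes of uptake and delivery fell in 3 of 4 cases. Slc27a1, which encodes fatty acid transport protein 1 (ENSMUSG00000031808; GRCm38 chromosome 8, 71568882 to 71587302, plus strand), was at 10.7 and 11.99 FPKM in Cko TAC, 20.2 and 19.9 in Cko sham, 10.8 and 10.8 in WT TAC and 28.8 and 28.4 in WT sham. Both sham groups lay above both TAC groups with no overlap, and the Cko sham libraries lay below the WT sham libraries. Slc27a1 fell 2.57-fold in wild type (log2 fold change -1.36, SE 0.112, adjusted p = 0.00573) and 1.73-fold in Piezo1-Cko (log2 fold change -0.79, SE 0.112, adjusted p = 0.0338). It was the member with the smallest p in both genotypes, although in Piezo1-Cko it did not pass without either Cko sham library or without Cko TAC replicate 1 (adjusted p up to 0.258).

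Lpl, the lipoprotein lipase that frees fatty acids at the vessel wall, was at 271 and 436 FPKM in Cko TAC against 502 and 451 in Cko sham, and 312 and 375 in WT TAC against 664 and 769 in WT sham. The TAC libraries were the lower ones in each genotype, with Cko TAC replicate 2 close to Cko sham replicate 2, and Lpl fell in the averaged comparison (log2 fold change -0.76, SE 0.170, adjusted p = 0.0187), a call lost when any of WT sham replicate 2, WT TAC replicate 1 and the Cko sham libraries was left out (adjusted p up to 0.0743). Fabp3, the heart fatty acid binding protein, had the highest level of all 46 genes, at 2979 and 4595 FPKM in Cko TAC against 4961 and 5393 in Cko sham, and 3636 and 4215 in WT TAC against 6223 and 6083 in WT sham. Its TAC libraries lay below the sham libraries in both genotypes and it fell in the averaged comparison (log2 fold change -0.57, SE 0.171, adjusted p = 0.0472), but it passed in only 1 of the 8 fits that each left out a library (adjusted p up to 0.151). Cd36, the fatty acid translocase, was at 379.6 and 431 FPKM in Cko TAC, 484 and 563 in Cko sham, 374 and 564 in WT TAC and 473 and 461 in WT sham, with groups that overlapped in wild type, and did not pass (log2 fold change -0.20, SE 0.152, adjusted p = 0.370).

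Activation genes, the acyl-CoA synthetases that trap fatty acids in the cell as CoA esters, did not fall. Acsl1, the main form in heart, was at 42.5 and 36.6 FPKM in Cko TAC, 40.8 and 53.6 in Cko sham, 40.1 and 57.3 in WT TAC and 54.5 and 47.7 in WT sham and did not pass (log2 fold change -0.17, SE 0.148, adjusted p = 0.438). Acsl4, a form that prefers arachidonic acid, was at 4.15 and 3.42 FPKM in Cko TAC against 3.10 and 2.68 in Cko sham, and 4.01 and 3.71 in WT TAC against 2.67 and 3.03 in WT sham. Every TAC library was above every sham library, and Acsl4 rose 1.28-fold in the averaged comparison (log2 fold change 0.36, SE 0.106, adjusted p = 0.0448), a call that held in 1 of the 8 fits with a library left out (adjusted p up to 0.143). Acsl5 was at 9.31 and 8.64 FPKM in Cko TAC against 7.09 and 7.96 in Cko sham, and 6.88 and 7.96 in WT TAC against 6.90 and 7.62 in WT sham and did not pass (log2 fold change 0.13, SE 0.0944, adjusted p = 0.322). The fourth form, Acsl3, was lower throughout, at 1.18 to 1.72 FPKM over the 8 libraries, and did not pass (log2 fold change 0.01, SE 0.139, adjusted p = 0.948).

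The carnitine shuttle and the enzymes that set malonyl-CoA gave 4 falls among 5 genes. Cpt1b, the muscle form of carnitine palmitoyltransferase 1 (chromosome 15, 89416405 to 89425863, minus strand), was at 1.08 and 1.20 FPKM in Cko TAC, 2.30 and 2.73 in Cko sham, 1.15 and 1.01 in WT TAC and 2.82 and 3.26 in WT sham. All 4 TAC libraries lay below all 4 sham libraries, and Cpt1b fell 2.24-fold in wild type (log2 fold change -1.16, SE 0.158, adjusted p = 0.0135) and 1.84-fold in Piezo1-Cko (log2 fold change -0.88, SE 0.158, adjusted p = 0.0479). The Piezo1-Cko call was lost in 6 of the 8 fits with a library left out, with either WT TAC library the exceptions, and the wild-type call without WT sham replicate 2 or WT TAC replicate 1. In the GENCODE annotation 81.4% of the exon bases of Cpt1b also belong to Gm44502 on the same strand, a gene listed at 0 in all 8 libraries, so the level of Cpt1b against other genes is uncertain and the part of this overlap was not tested.

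Cpt1a, the liver form, was at 14.9 and 14.6 FPKM in Cko TAC against 10.5 and 11.4 in Cko sham, and 13.4 and 15.0 in WT TAC against 8.77 and 12.9 in WT sham. Every TAC library was above every sham library, opposite to Cpt1b, but Cpt1a did not pass (log2 fold change 0.41, SE 0.127, adjusted p = 0.0525). Cpt2 is the inner-membrane partner of the shuttle and had the highest listed FPKM of these 5 genes, the level of Cpt1b being uncertain. Cpt2 was at 50.1 and 68.1 FPKM in Cko TAC and 87.8 and 95.3 in Cko sham. In wild type it was at 40.4 and 63.1 under TAC and 106 and 102 under sham. Its TAC libraries were all below its sham libraries, with WT TAC replicate 1 the lowest, and it fell in the averaged comparison (log2 fold change -0.84, SE 0.163, adjusted p = 0.0121).

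Mlycd, which destroys malonyl-CoA, and Acacb, which makes it at the mitochondrial surface, both fell. Mlycd was at 24.4 and 31.1 FPKM in Cko TAC against 47.1 and 53.7 in Cko sham, and 24.1 and 29.8 in WT TAC against 48.3 and 53.2 in WT sham. With no overlap in either genotype it fell 1.84-fold in the averaged comparison (log2 fold change -0.88, SE 0.119, adjusted p = 0.00481). Acacb was at 14.1 and 13.9 FPKM in Cko TAC against 19.0 and 19.3 in Cko sham, and 17.2 and 18.4 in WT TAC against 21.5 and 28.7 in WT sham and fell in the averaged comparison (log2 fold change -0.45, SE 0.106, adjusted p = 0.0216), with the Cko libraries the lower ones under each surgery; that call was lost without WT TAC replicate 1, either Cko sham library or Cko TAC replicate 1 (adjusted p up to 0.0756).

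The acyl-CoA dehydrogenases take the first step of each cycle, for chains of different length. Acadm, for medium chains, was at 148 and 143 FPKM in Cko TAC, 229 and 261 in Cko sham, 165 and 199.7 in WT TAC and 308 and 249.3 in WT sham, and Acads, for short chains, at 61.6 and 71.2 FPKM in Cko TAC, 94.3 and 105 in Cko sham, 57.5 and 73.2 in WT TAC and 100.4 and 106 in WT sham. Both had every TAC library below every sham library, and both fell in the averaged comparison, Acadm 1.597-fold (log2 fold change -0.68, SE 0.119, adjusted p = 0.00927) and Acads 1.54-fold (log2 fold change -0.62, SE 0.112, adjusted p = 0.00972). Acadl, for long chains in the mouse and the highest of the 4, was at 359 and 411 FPKM in Cko TAC against 470.0 and 525 in Cko sham, and 383 and 469.8 in WT TAC against 587 and 508 in WT sham and did not pass (log2 fold change -0.37, SE 0.123, adjusted p = 0.0639), although its TAC libraries lay below its sham libraries. Acadvl, for very long chains, was at 111 and 78.3 FPKM in Cko TAC, 112 and 132 in Cko sham, 101.1 and 132 in WT TAC and 174 and 82.1 in WT sham. Its groups overlapped in wild type and no comparison passed (log2 fold change -0.22, SE 0.247, adjusted p = 0.549). In the annotation 42.9% of its exon bases overlap Dvl2 on the opposite strand, which was at 1.14 to 1.89 FPKM, and whether reads were counted by strand is not given in the sources used here.

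All 6 genes of the hydratase, dehydrogenase and thiolase steps fell in the averaged comparison. Acaa2, the mitochondrial thiolase (ENSMUSG00000036880), was at 299 and 395 FPKM in Cko TAC, 624 and 653 in Cko sham, 185 and 367 in WT TAC and 695 and 759 in WT sham. The lowest library was WT TAC replicate 1, the groups did not overlap, and Acaa2 fell 2.27-fold in the averaged comparison (log2 fold change -1.18, SE 0.216, adjusted p = 0.0102). In wild type its log2 fold change was -1.48 with all libraries, -0.98 without the first WT TAC library and -1.97 without the second. Echs1, the short-chain enoyl-CoA hydratase, was at 31.1 and 31.4 FPKM in Cko TAC against 43.6 and 44.4 in Cko sham, and 28.4 and 34.5 in WT TAC against 49.2 and 44.9 in WT sham. Each genotype split cleanly by surgery (log2 fold change -0.53, SE 0.0932, adjusted p = 0.00903). Acaa1a, a peroxisomal thiolase, was at 19.4 and 22.8 FPKM in Cko TAC against 28.5 and 26.7 in Cko sham, and 15.8 and 17.1 in WT TAC against 24.8 and 29.6 in WT sham, again with no overlap (log2 fold change -0.54, SE 0.0989, adjusted p = 0.0101).

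Hadha and Hadhb, the subunits of the trifunctional protein, and Hadh, the dehydrogenase for shorter chains, had averaged log2 fold changes of -0.63, -0.65 and -0.67 (adjusted p = 0.0133, 0.0149 and 0.0109), so that all 3 fell. Hadha ranged over 63.5 to 136, Hadhb over 101.0 to 209 and Hadh over 63.0 to 129 FPKM. Hadha and Hadhb each lost the call when either Cko sham library was left out (adjusted p up to 0.0547 and 0.0594). Hadhb can share reads with Gm13910, a copy of it that is 99.8% identical and was itself listed at 92.7 to 220 FPKM, so the level of Hadhb is uncertain. The Fabp3 copy Fabp3-ps1, 99.3% identical, was at 13.8 to 38.0 FPKM, far below Fabp3.

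Promoter sequence was searched in the RefSeq promoter table (GRCm38.p6), which holds 250 bases before and 50 after a start site and matched 38 members with 46 promoters. The estrogen-related receptor element TNAAGGTCA, searched on both strands, was in 0 of the 46 and in 1.28% of all 32851 promoters. The PPAR element AGGTCANAGGTCA was in 0 and in 0.0396% of all promoters. Both strings are so rare that 0 of 46 does not tell these promoters from others, nor show that such sites are absent. The nuclear receptor hexamer AGGTCA, searched after these results, was in 10 member promoters of 9 genes, 21.7%, against 16.3% of all promoters. It lies within the longer elements, so the counts overlap. Of those 9 genes 4 fell in the averaged comparison, Acacb, Acadm, Echs1 and Plin5, and 5 did not pass, Acadvl, Cd36, Cpt1a, Plin2 and Ucp3. As examples of both kinds the promoters of Acadm and Echs1, which fell, and of Ucp3, which did not pass and has a pair of hexamers, are shown 5′ to 3′ on the gene's strand, with that hexamer on either strand in capitals. Each match is a string of letters and no evidence of binding. Their positions are Acadm, chr3:153944594-153944893, minus strand; Echs1, chr7:140116372-140116671, minus strand; Ucp3, chr7:100472741-100473040, plus strand.
Acadm: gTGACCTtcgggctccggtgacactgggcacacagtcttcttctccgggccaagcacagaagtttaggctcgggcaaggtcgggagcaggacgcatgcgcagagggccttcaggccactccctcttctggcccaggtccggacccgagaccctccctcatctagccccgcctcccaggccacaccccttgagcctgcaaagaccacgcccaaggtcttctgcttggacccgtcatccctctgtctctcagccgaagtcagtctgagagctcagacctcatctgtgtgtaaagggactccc
Echs1: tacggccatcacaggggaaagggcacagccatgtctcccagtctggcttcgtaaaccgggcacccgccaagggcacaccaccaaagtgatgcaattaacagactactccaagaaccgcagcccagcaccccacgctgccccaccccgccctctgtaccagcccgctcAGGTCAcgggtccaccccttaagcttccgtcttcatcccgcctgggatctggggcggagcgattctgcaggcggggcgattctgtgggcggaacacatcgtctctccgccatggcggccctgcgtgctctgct
Ucp3: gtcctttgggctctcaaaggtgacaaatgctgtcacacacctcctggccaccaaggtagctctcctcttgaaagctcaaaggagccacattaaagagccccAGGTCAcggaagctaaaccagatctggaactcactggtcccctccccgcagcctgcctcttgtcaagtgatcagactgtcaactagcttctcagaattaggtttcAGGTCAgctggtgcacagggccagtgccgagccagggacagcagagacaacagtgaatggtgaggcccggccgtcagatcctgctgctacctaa

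Auxiliary enzymes that handle unsaturated chains had the lowest median of the 11 roles in wild type, a log2 fold change of -1.02, and 3 of the 4 fell in the averaged comparison. Ech1, which moves double bonds in chains with more than one of them (ENSMUSG00000053898; chromosome 7, 28825217 to 28832247, plus strand), was at 309.9 and 374 FPKM in Cko TAC, 757 and 728 in Cko sham, 208 and 371 in WT TAC and 879 and 839 in WT sham. The highest TAC library, at 374 FPKM, was far below the lowest sham library, at 728 FPKM, and WT TAC replicate 1 was the lowest of all. Ech1 fell 2.59-fold in the averaged comparison (log2 fold change -1.38, SE 0.186, adjusted p = 0.00481). It also fell in wild type alone (log2 fold change -1.63, SE 0.264, adjusted p = 0.0175), a call lost without either WT sham library or WT TAC replicate 1, and did not pass in Piezo1-Cko (log2 fold change -1.12, SE 0.264, adjusted p = 0.0753). Eci1, another isomerase of unsaturated chains, was at 159 and 217 FPKM in Cko TAC against 317 and 338 in Cko sham. In wild type it was at 126 and 207 under TAC against 371 and 354 under sham. Eci1 fell likewise (limma, log2 fold change -0.99, SE 0.177, adjusted p = 0.00972 averaged over genotypes).

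Decr1, the dienoyl-CoA reductase, fell in the averaged comparison (log2 fold change -0.73, SE 0.152, adjusted p = 0.0151), but not without either Cko sham library or Cko TAC replicate 1 (adjusted p up to 0.0565). Its log2 fold change in wild type was -0.88, and -0.54 without WT TAC replicate 1. Eci2, a further isomerase, ranged from 15.1 to 26.6 FPKM and missed the threshold (limma, log2 fold change -0.39, SE 0.121, adjusted p = 0.0505).

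The electron transfer flavoprotein passes electrons from the dehydrogenases to the respiratory chain through Etfdh. Etfb, its beta subunit, was at 25.1 and 46.9 FPKM in Cko TAC, 90.00 and 64.3 in Cko sham, 17.7 and 31.0 in WT TAC and 78.8 and 125 in WT sham. It had the largest log2 fold change of the 46 genes in wild type, at -2.06, and in the averaged comparison it fell 3.02-fold (log2 fold change -1.596, SE 0.275, adjusted p = 0.00903). The replicates of each group differed widely. Of its exon bases 53.0% also belong to Gm45233 on the same strand, which was listed at 0. The level of Etfb against other genes, such as Etfa, is therefore uncertain, and the part of this overlap was not tested. Etfa, the alpha subunit and the highest of the 3 genes, was at 202 and 175 FPKM in Cko TAC against 328 and 309.6 in Cko sham, and 197 and 250.03 in WT TAC against 331 and 321 in WT sham. With less spread than Etfb it fell in the averaged comparison (log2 fold change -0.66, SE 0.116, adjusted p = 0.00927). Etfdh fell there too (log2 fold change -0.47, SE 0.127, adjusted p = 0.0334) but held its call in 2 of the 8 fits with a library left out.

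Of the uncoupling proteins, carriers of the inner mitochondrial membrane, 1 of 2 rose. Ucp2 was at 21.8 and 23.9 FPKM in Cko TAC against 9.48 and 12.2 in Cko sham, and 12.2 and 17.8 in WT TAC against 13.4 and 9.85 in WT sham. Under TAC both Cko libraries were above all other libraries, and the wild-type groups overlapped. Ucp2 rose 1.62-fold in the averaged comparison (log2 fold change 0.70, SE 0.160, adjusted p = 0.0203), and neither genotype passed alone (adjusted p = 0.0621 in Piezo1-Cko and 0.318 in wild type). The averaged call was lost without WT sham replicate 2, Cko sham replicate 1 or Cko TAC replicate 1 (adjusted p up to 0.0763). Ucp3, the muscle form, was at 10.6 and 16.3 FPKM in Cko TAC against 8.93 and 21.2 in Cko sham, and 2.54 and 10.4 in WT TAC against 12.6 and 27.6 in WT sham. Its 2 replicates differed more than any other member's in 3 of the groups, and it did not pass (log2 fold change -0.90, SE 0.471, adjusted p = 0.193). Its log2 fold change in wild type was -1.74, and -0.82 without WT TAC replicate 1, -2.66 without the second WT TAC library and -1.19 without the second WT sham library. The averaged value lay between -1.36 and -0.44 with a library left out, the smallest without WT TAC replicate 1.

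Thioesterases split acyl-CoA back into fatty acid and CoA. Acot1, the cytosolic form, was at 1.63 and 1.67 FPKM in Cko TAC, 3.63 and 3.6003 in Cko sham, 1.17 and 2.76 in WT TAC and 4.86 and 6.83 in WT sham, with no overlap between TAC and sham libraries, and fell 2.27-fold in the averaged comparison (log2 fold change -1.18, SE 0.214, adjusted p = 0.0102). Its log2 fold change in wild type was -1.43, and -0.94 without WT TAC replicate 1. Acot13, a mitochondria-associated form and the highest of the 3, was at 260.3 and 385 FPKM in Cko TAC against 481 and 489 in Cko sham, and 274 and 316 in WT TAC against 464 and 579 in WT sham. Every TAC library was below every sham library, and it fell in the averaged comparison (log2 fold change -0.72, SE 0.155, adjusted p = 0.0168), a call lost when any of WT sham replicate 2 and the Cko sham libraries was left out (adjusted p up to 0.0638). Acot2, the mitochondrial neighbour of Acot1, had 16.0 to 27.5 FPKM and did not pass (log2 fold change -0.34, SE 0.138, adjusted p = 0.106).

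Among genes of triglyceride storage and lipolysis, 3 of 6 fell. Pnpla2, adipose triglyceride lipase, was at 56.2 and 71.8 FPKM in Cko TAC against 86.8 and 103 in Cko sham, and 51.8 and 75.1 in WT TAC against 108 and 116 in WT sham, without overlap, and fell in the averaged comparison (log2 fold change -0.70, SE 0.148, adjusted p = 0.0153). Dgat2, which completes triglyceride synthesis and was the highest of the 6, was at 59.0 and 80.3 FPKM in Cko TAC, 99.9 and 119 in Cko sham, 44.7 and 72.2 in WT TAC and 111 and 159 in WT sham and fell 1.91-fold in the averaged comparison (log2 fold change -0.94, SE 0.199, adjusted p = 0.0164). Neither Pnpla2 nor Dgat2 passed without Cko sham replicate 2 or Cko TAC replicate 1 (adjusted p up to 0.0623 and 0.0625). Plin5, which ties lipid droplets to mitochondria, fell in the averaged comparison (log2 fold change -0.78, SE 0.228, adjusted p = 0.0427), but passed in only 1 of the 8 fits with a library left out (adjusted p up to 0.133). Lipe, Plin2 and Dgat1, a hormone-sensitive lipase, a droplet coat protein and the other acyltransferase, did not pass, with averaged log2 fold changes of -0.24, 0.17 and -0.42.

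**Figure D3:**
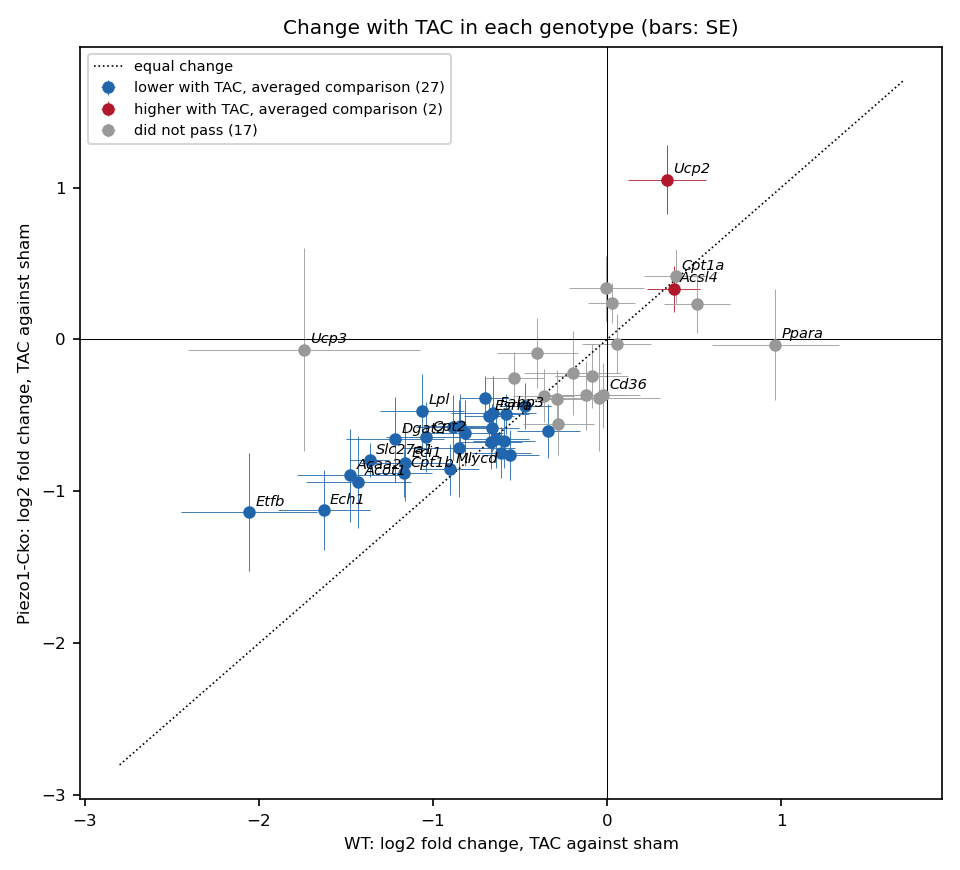
Log2 fold change of TAC against sham in Piezo1-Cko (vertical axis) and in wild type (horizontal axis) for the 46 genes, with bars for the SE and colour for the call in the comparison averaged over genotypes. Most points lie in the lower left, and Etfb, Ucp3 and Ech1 reach furthest left; Ucp2 is highest at 1.05 in Piezo1-Cko and Ucp3 lies at -1.74 in wild type (-0.82 without WT TAC replicate 1) and -0.07 in Piezo1-Cko.

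Of the 5 transcriptional regulators only Esrra fell. Esrra, estrogen-related receptor alpha, was at 59.6 and 65.4 FPKM in Cko TAC against 87.0 and 90.7 in Cko sham, and 54.0 and 68.2 in WT TAC against 97.1 and 97.7 in WT sham, without overlap, and fell 1.51-fold in the averaged comparison (log2 fold change -0.59, SE 0.103, adjusted p = 0.00893). Ppargc1b, a coactivator, was at 1.97 and 1.39 FPKM in Cko TAC against 1.28 and 1.41 in Cko sham, and 3.07 and 2.37 in WT TAC against 1.83 and 1.64 in WT sham; its WT TAC libraries were the highest of the 8 and it did not pass (log2 fold change 0.38, SE 0.134, adjusted p = 0.0770). Ppara, the PPAR of fatty acid oxidation, was at 1.97 and 0.528 FPKM in Cko TAC, 1.05 and 1.21 in Cko sham, 3.08 and 2.58 in WT TAC and 1.28 and 1.121 in WT sham. The WT TAC libraries were the highest and the Cko TAC libraries lay on either side of both sham groups, on 35 to 220 reads a library over the 8, and no comparison passed (log2 fold change 0.97, SE 0.364, adjusted p = 0.111 in wild type). Ppargc1a, the coactivator of mitochondrial genes, and Esrrg, estrogen-related receptor gamma, had averaged log2 fold changes of -0.21 and -0.24 and did not pass.

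**Figure D4:**
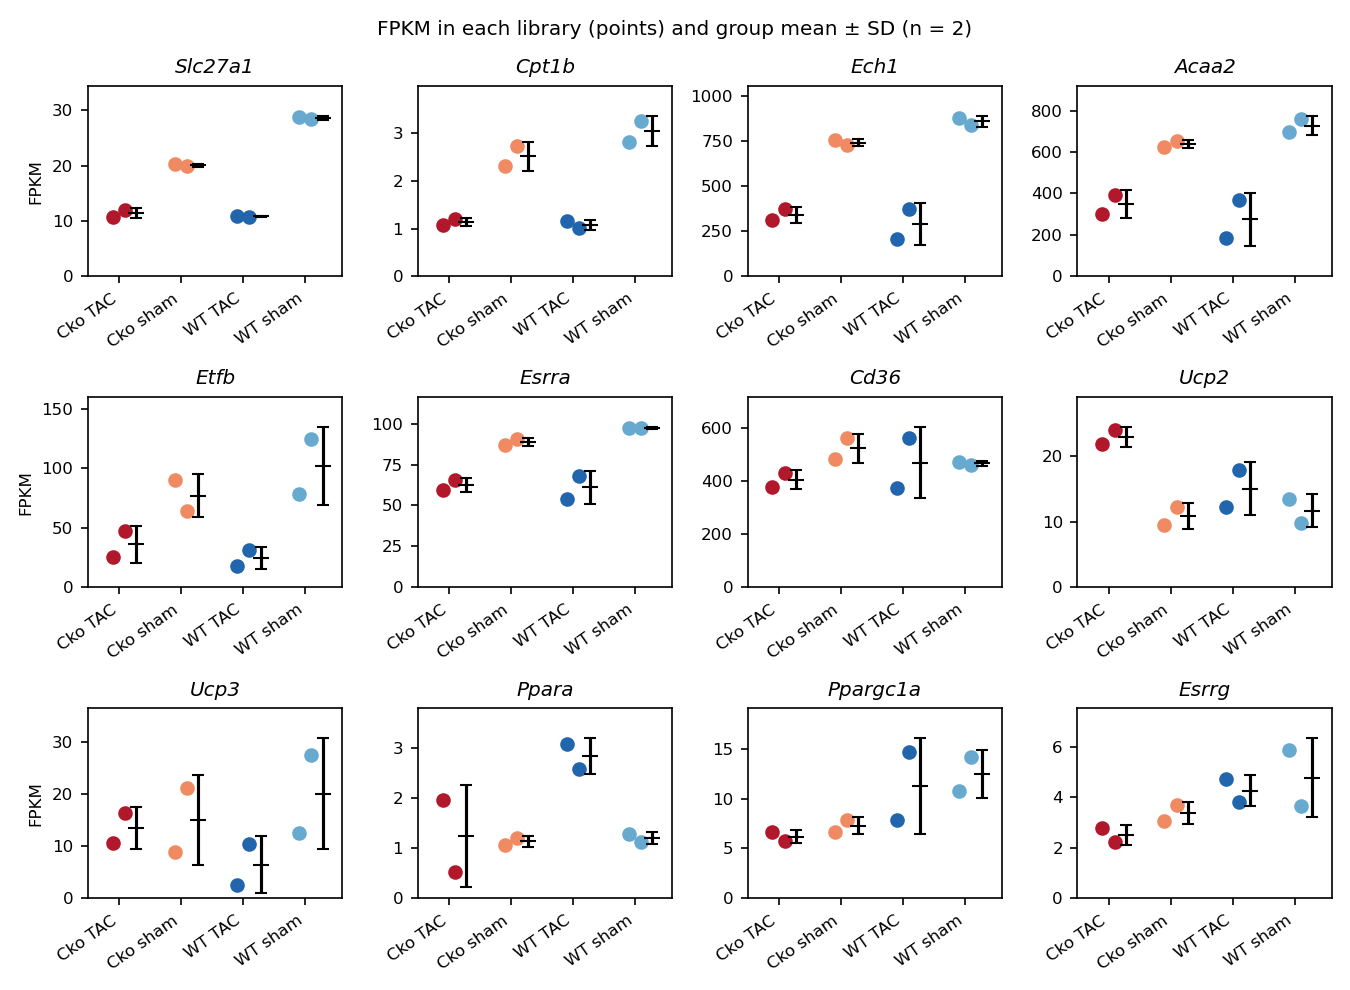
FPKM of 12 genes in each library (coloured points) with the mean ± SD of each group (black, n = 2), groups in the order Cko TAC, Cko sham, WT TAC and WT sham. Slc27a1, Cpt1b, Ech1, Acaa2 and Esrra are lower in TAC than in sham libraries of both genotypes, Ucp2 is highest in Cko TAC, and Ppargc1a and Esrrg are lower in each Cko group than in the WT group of the same surgery except for Esrrg under sham, where one library overlaps.

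Piezo1-Cko was then compared with wild type to ask whether the genotype changed the pathway at rest or under load. No member passed under sham, where 0.0215% of all genes did, or under TAC, where 0% did (limma; 0 by limma-voom). At an unadjusted p under 0.05 there were 4 members under sham, against 7.68% of all genes, and 6 under TAC, against 9.11%. The median log2 difference of the members was -0.15 under sham and 0.00 under TAC. Averaged over surgeries, a comparison added after the data were seen, no member passed either, against 0.00718% of all genes, with 5 members at an unadjusted p under 0.05, against 11.4% of all genes. None of the 7 endothelial markers passed either, and their median log2 difference was 0.56 under sham, 0.27 under TAC and 0.42 averaged over surgeries, with 6, 0 and 7 of them at an unadjusted p under 0.05. The 10 cardiomyocyte markers had medians of -0.19 under sham and 0.00 under TAC, and the part of either list in the members' differences was not tested.

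Those 5 are given as values only, chosen after they were seen; their number is near the share over all genes. Ppargc1a was at 6.62 and 5.74 FPKM in Cko TAC against 7.84 and 14.6 in WT TAC, and 6.69 and 7.87 in Cko sham against 10.8 and 14.2 in WT sham, a log2 difference of -0.74 (SE 0.196, adjusted p = 0.269). Each Cko library was below the lowest WT library except Cko sham replicate 2, at 7.87 against 7.84 FPKM in WT TAC replicate 1. Esrrg was at 2.80 and 2.24 FPKM in Cko TAC against 4.71 and 3.83 in WT TAC, and 3.07 and 3.70 in Cko sham against 5.88 and 3.67 in WT sham (-0.54, SE 0.161, adjusted p = 0.290). Log2 differences of the other 3 were -0.35 for Acacb, -0.42 for Ppargc1b and -0.22 for Slc27a1, with adjusted p from 0.290 to 0.363.

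The response to TAC in Piezo1-Cko minus that in wild type asks whether the genotypes reacted differently. No member passed this interaction, against 0.00718% of all genes, and 1 had an unadjusted p under 0.05, against 4.77% of all genes (limma; 0 members passed by limma-voom). That was Slc27a1, with a difference of 0.57 (SE 0.158, adjusted p = 0.911), which was close between genotypes under TAC and lower in Cko sham than in WT sham. Next came Ucp2 (0.71, SE 0.320) and Ppara (-1.002, SE 0.514), both at adjusted p = 0.911. The value of Ppara was -1.63 without Cko TAC replicate 1 and -0.37 without the second Cko TAC library. The difference was above 0 for 21 of the 27 members that fell and for 76.5% of all 1880 genes that fell in the averaged comparison.

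The replicates of 3 groups also differed in genes of the circadian clock. An index of clock genes, the mean log2 level of 8 such as Dbp and Per2 minus that of 4 such as Arntl, was below 0 in Cko sham replicate 1, WT TAC replicate 1 and WT sham replicate 1, and from 1.36 to 2.94 in the other 5 libraries. Both Cko TAC libraries had a high index, at 2.45 and 2.94, so the groups were not balanced in it. Each low-index library was replicate 1 of its group. Those of wild type were also the ones set apart by atrial and immunoglobulin RNA. The index, the replicate number and those features therefore go together in wild type. Of the members, 16 were lower in the low-index library of all 3 groups and 2 were higher, against 15.2% and 12.6% of all tested genes. Ucp3 differed most, by a log2 value of -1.20 in Cko sham, -1.84 in WT TAC and -1.10 in WT sham. With the index as a term in the fit, Ucp3 fell in the averaged comparison (log2 fold change -1.16, adjusted p = 0.0163) and Eci2 did (-0.43, adjusted p = 0.0379), while Fabp3, Acsl4 and Etfdh lost their calls (adjusted p = 0.0655, 0.0614 and 0.0513) at log2 fold changes of -0.59, 0.37 and -0.47, against -0.57, 0.36 and -0.47 without the term. The time of day at which hearts were taken is not given in the sources used here.

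**Figure D5:**
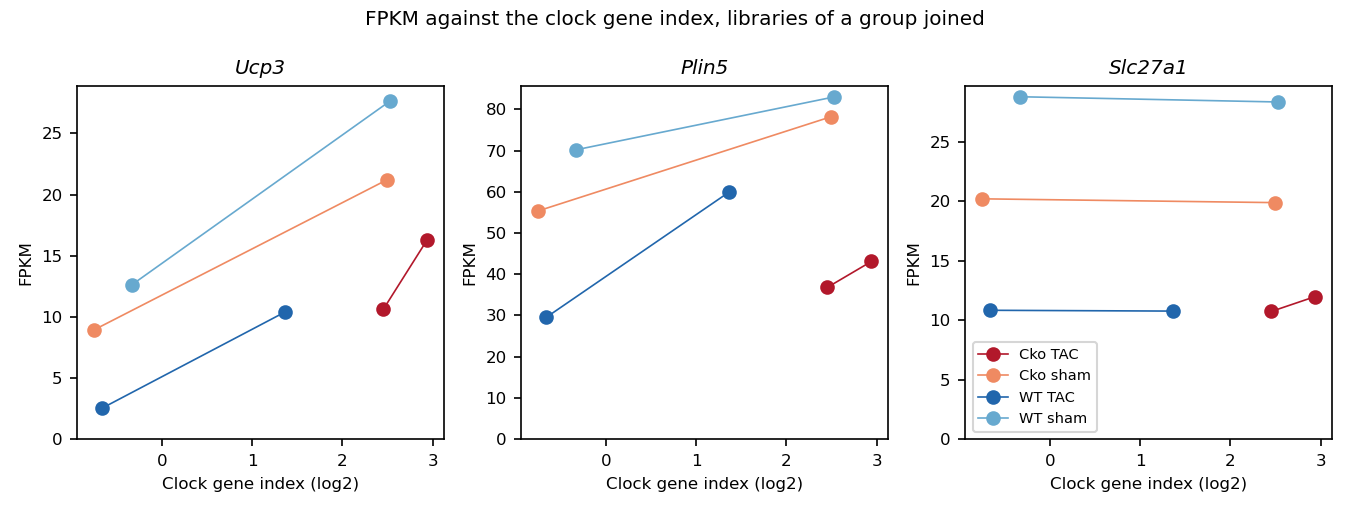
FPKM of Ucp3, Plin5 and Slc27a1 (vertical axes) against the clock gene index (log2, horizontal axis) in each library, with the 2 libraries of a group joined by a line. Ucp3 is lower in the low-index library of Cko sham, WT TAC and WT sham, and Slc27a1 is nearly level within each group.

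Members also differed by length. Spearman's rho between gene length and the averaged log2 fold change was 0.40 across the 46 members and 0.22 across all tested genes, and for the mean level -0.42 and -0.18; genes are not independent replicates and no p is given. The 23 shorter members had a median of -0.70 and the 23 longer ones -0.45. The library size behind the FPKM was 1.02 to 1.10 times the recovered total in the TAC libraries and 0.886 to 0.945 times in the sham libraries. Scaling to the total of recovered reads instead of the authors' library size moved the median of all tested genes by 0.18 in the averaged comparison. Of the members, 23 were then called lower and 5 higher, against 27 and 2 on the deposited scale, and their median was -0.36. Over all genes the split was 3679 higher and 971 lower, against 1657 and 1880 on the deposited scale. Fabp3, Acacb, Etfdh and Plin5 lost their calls and Cpt1a, Acsl5 and Ppargc1b gained one, as higher.

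Other genes of the pathway, 101 listed and 90 tested, were examined for context. In the averaged comparison 27 fell and 5 rose, against 13.5% of all tested genes lower and 11.9% higher. The median log2 fold change of the 90 was -0.14. In wild type 14 fell and 2 rose, against 7.65% of all genes lower and 5.57% higher. In Piezo1-Cko 2 fell, Acad12 and Perm1, against 0.546% of all genes lower. Of 9 other mitochondrial oxidation genes 6 fell in the averaged comparison, with a median of -0.51, among them in wild type Hsd17b10, the short-chain dehydrogenase of type 10 (-1.03, adjusted p = 0.0286), and Acad12 (-0.53, adjusted p = 0.0409). Among carnitine and thioesterase genes, Acot7, a thioesterase (-0.84), and Crat, carnitine acetyltransferase (-0.77), fell in wild type, and Acot9 rose (0.55).

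In storage, Plin4, a droplet coat protein (-0.83), and Fitm1, an inducer of droplet formation (-1.35), fell in wild type, and Gpam, the first acyltransferase of glycerolipid synthesis, rose there (log2 fold change 1.85, SE 0.485, adjusted p = 0.0477). Gpam was at 16.0 and 4.71 FPKM in Cko TAC, 3.76 and 5.49 in Cko sham, 23.1 and 16.4 in WT TAC and 5.65 and 4.51 in WT sham, with one Cko TAC library inside the range of the sham libraries. Of 11 tested peroxisomal genes 4 fell in the averaged comparison, against 13.5% of all tested genes. Those that fell in wild type included Abcd3, a peroxisomal transporter (-0.59), and Phyh, an alpha-oxidation enzyme (-0.66). Dbi, the acyl-CoA binding protein, fell in wild type (-0.63), as did Rxrg, the partner receptor of PPARs (-0.92), and Perm1, a regulator of muscle mitochondria (-0.51). Of 11 tested genes of fatty acid synthesis none fell and 2 rose in the averaged comparison, Scd2 (0.57) and Elovl1 (0.43). The shares of all tested genes there were 13.5% lower and 11.9% higher.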

How the data were processed

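RNA from 8 heart samples was sequenced after Trizol extraction and NEBNext Ultra preparation from 1 ug of total RNA, per the labels' protocols. The submitters' processing notes list featureCounts 1.5.0-p3 and Bowtie 0.12.2 beside CASAVA 1.8, with mm10 and mm8 as builds; the counting's strand setting is not given in the sources used here. The values deposited by the authors are FPKM, although the table is named for counts: multiplied by gene length, 100% of values in each library were whole reads within 0.01 read. The 0 other columns of per-sample values were unused.

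Genes with at least 0.5 FPKM and 10 reads in at least 2 libraries were tested on log2(FPKM + 0.5) with limma 3.58.1 in R 4.3.3 (trend and robust), over all 8 libraries with 1 mean per group, which leaves 4 residual degrees of freedom, and p-values were adjusted by Benjamini-Hochberg at 0.05 over all tested genes. limma-voom on the recovered reads called 921 genes higher and 1191 lower for TAC against sham in wild type, against 776 and 1066. The script was tested on simulated data. Copies of members were sought with minimap2 2.31-r1302, and 43 of 46 members have the start and end of GENCODE M21 (GRCm38).

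Members and lists were chosen with earlier results of these data known. Values in every library are given, within each role, for the 2 members with the smallest p in the averaged comparison of TAC with sham, the member with the highest mean FPKM, each member passing a genotype comparison or the interaction, and the 3 members with the smallest interaction p; of the other pathway lists, the 2 genes with the smallest p in each direction that passed in wild type are named. Values in every library of Cd36, Acsl1, Cpt1a, Acacb, Acadvl, Ucp3, Ppargc1a and Esrrg were added after their values were seen. Alternatives were other pseudocounts, no filter, other scalings, limma-voom, libraries compared alone, a replicate block, a clock term, and leaving out libraries.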

Additional observations from a re-analysis of the deposited data

How the results depend on the processing

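Counts of members passing are given, with those of all genes in brackets. For TAC against sham in wild type, 19 passed (1842); the count was 2 when low values were not filtered (247), 11 with scaling to the total of recovered reads (2369), 2 with wild-type libraries compared alone (272), 11 with the clock index as a term (1061), 0 when the first replicates of WT TAC and WT sham were both left out (1), and 1 to 23 with 1 library left out. In Piezo1-Cko 2 passed (208); the count was 1 with a pseudocount of 1 FPKM (190), 0 with no filter (0), 5 with limma-voom (390), 4 with Cko libraries compared alone (397), 0 with the clock term (0), 4 without both first wild-type libraries (397), and 0 to 6 with 1 library left out. Averaged over genotypes 29 passed, 21 to 32 under the other alternatives, and 17 to 30 with 1 library left out. Over all genes the averaged comparison had 3537 calls, and 1927 to 4650 in the alternatives that kept every library. Leaving out 1 library lowered that number in most fits. Genotype comparisons and the interaction had 0 members passing in every alternative run. With the replicate number as a block, 20 members passed in wild type (2187), 2 in Piezo1-Cko (236) and 32 averaged over genotypes (3748). Correlations of same-numbered libraries were 0.0256 to 0.248, highest between WT sham and WT TAC. No label states a pairing, so the main fit had none, and these values do not show that none exists. Over all members and comparisons, 251 single values lost their call under an alternative, 53 gained one and 5354 kept their side of the threshold. No direction of a called member reversed under the alternatives run. The averaged comparison and the interaction were not run with each genotype's libraries compared alone, since they need both. The cause of these changes was not tested.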
